A study of Mus musculus with 768 samples.

Results

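Organoid cells at culture day 3 were compared with those at culture day 1 by single-cell RNA sequencing of the mouse cochlea, with the culture as the unit of comparison. The comparison holds 410 of the 711 retained cells of the series, 182 from 3 day 1 cultures and 228 from 3 day 3 cultures. Cells were placed in a day and a culture by their labels, and 3 limits decided which were kept, namely 50000 or more reads on mouse genes, 1500 or more detected genes, and a mitochondrial share of reads of 20% or less. All cells of both days came from the greater epithelial ridge (GER) of postnatal day 2 mice that carried Sox2-GFP, Fgfr3-CreERT2 and the Ai14-tdTomato reporter. Sox2-GFP marks cells that express the transcription factor Sox2, and Fgfr3-CreERT2 is a tamoxifen-dependent Cre recombinase driven by Fgfr3, a gene of lateral supporting cells. The GER cells were enriched by flow cytometry. On both days alike the medium was DMEM/F-12 with N-2, B-27, ampicillin, EGF, FGF2, IGF1, CHIR99021 (a GSK3 inhibitor), valproic acid (a histone deacetylase inhibitor), 2-phospho-L-ascorbic acid and the TGFβ receptor inhibitor 616452. The days therefore differ in time in culture, and cells without these agents are not analysed here. The labels do not say whether the replicates of a day came from separate litters or preparations, so p-values measure the spread between these cultures, which may be technical.

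The GER is the epithelium on the medial side of the developing organ of Corti. In the neonatal cochlea its cells secrete proteins of the tectorial membrane, and in culture with growth factors and Wnt activation some of them re-enter the cell cycle and form organoids. The integrated stress response is the programme in which phosphorylation of the translation factor eIF2α slows general translation while the transcription factor ATF4 is made, and ATF4 then induces genes of amino acid synthesis, amino acid import and tRNA charging. The tectorial membrane and cartilage both contain collagens of types II, IX and XI.

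Summed over its cells, a culture held between 26391412 and 65109518 reads on genes. A read of Epcam or Cdh1, which mark epithelium, was found in 99.8% of the 410 cells. The first deposited file holds culture 1 of both days and the second holds cultures 2 and 3 of both days. Genes detected per cell, after thinning each cell to 200000 reads, had medians of 6370.5, 6327 and 6224.5 in the day 1 cultures and 6413, 5977 and 6336.5 in the day 3 cultures, and these ranges overlap. Levels below are CPM, which are counts scaled to a common library size, on the TMM scale, and fold changes are log2 of day 3 over day 1, given as the value ± its standard error (SE). In summed counts, fewer cells of a type and less RNA per cell cannot be told apart.

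Chac1 (ENSMUSG00000027313.3, chr2:119351229-119354381 on GRCm38), which encodes an enzyme that degrades glutathione and is a known ATF4 target, was 1 of the 2 genes that passed the test, of 17466 tested with edgeR at a Benjamini-Hochberg adjusted p under 0.05 (0.0115% of the genes). It stood at 3.63, 2.12 and 1.33 CPM on day 1 and at 53.3, 50.5 and 39.2 CPM on day 3. Every day 3 culture was above every day 1 culture. Chac1 rose by 4.33 on the log2 scale (SE 0.54, edgeR adjusted p 0.0237, n = 3 cultures a day). Its level on day 7 was 17.9 ± 8.14 CPM (SD, n = 5), between those of the earlier days. In cells thinned to 200000 reads, a Chac1 read was present in 13.5%, 4.71% and 5.26% of the day 1 cells and in 38.1%, 28.8% and 27.8% of the day 3 cells. The highest day 1 share had an exact 95% binomial interval from 5.59% to 25.8% and the lowest day 3 share one from 17.9% to 39.6%, so the intervals of single cultures can overlap. These intervals cover the counting of cells within a culture only and leave out the spread between cultures. Reads are PCR copies without molecular identifiers. Chac1 was higher on day 3 in each of 24 alternative analyses, with log2 fold changes from 3.73 to 4.79, and 17 of them called it. Leaving out day 1 culture 2 ended the call (edgeR adjusted p 0.185), as did leaving out day 1 culture 3 (0.0990), day 3 culture 1 (0.118), 2 (0.108) or 3 (0.0650), or day 7 culture 1 (0.0535). Day 7 cultures are on neither side of the contrast and enter the gene filter, the scaling and the estimate of spread.

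The promoter of Chac1 is shown with that of Asns, the asparagine synthetase gene, because both hold the C/EBP-ATF element, the composite site bound by dimers of ATF4 with a C/EBP factor. Sequences are the 250 bases before a RefSeq transcript start on GRCm38.p6, for Chac1 at chr2:119350992-119351241 on the plus strand and for Asns at chr6:7693210-7693459 on the minus strand. Capitals mark the C/EBP-ATF element, searched as TGATGNAA or TGACGNAA on both strands, and the CCAAT box, searched as CCAAT on both strands.
Chac1: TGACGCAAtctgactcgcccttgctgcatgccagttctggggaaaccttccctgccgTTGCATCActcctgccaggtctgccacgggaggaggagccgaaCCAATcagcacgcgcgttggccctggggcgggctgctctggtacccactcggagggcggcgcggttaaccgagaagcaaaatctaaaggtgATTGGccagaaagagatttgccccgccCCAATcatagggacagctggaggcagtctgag
Asns: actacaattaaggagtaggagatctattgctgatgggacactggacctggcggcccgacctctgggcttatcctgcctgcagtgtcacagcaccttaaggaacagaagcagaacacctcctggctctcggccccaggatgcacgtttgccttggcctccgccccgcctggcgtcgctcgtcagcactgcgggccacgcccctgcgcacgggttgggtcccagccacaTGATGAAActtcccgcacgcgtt
The element begins at -250 and, on the opposite strand, at -193 from the transcript start in Chac1, and at -23 in Asns. It was found in 12 of 42 promoters of the stress response list described next (28.6%, from the 33 of 41 genes with an entry) and in 4.78% of all 32851 promoters. Trib3 and Ddit3, which are also known ATF4 targets, have no match in this window. Members were listed as stress response genes and ATF4 targets, so the share of the list does not bear on the days compared. A match describes letters and not a bound site.

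Other genes of the integrated stress response and ATF4 target list mostly lay above their day 1 level on day 3. Of 41 members, 34 had a positive log2 fold change and 7 a negative one, with a median of 0.75, against a median of 0.02 over all tested genes. An unadjusted edgeR p under 0.05 was found for 23 of 41 members on the higher side and none on the lower side. Of all tested genes 9.26% have one, 5.69% higher and 3.57% lower. The same number, 23 of 41, had higher CPM in every day 3 culture than in every day 1 culture, which holds for 9.88% of all genes. Chac1 was the only member called by edgeR. The DESeq2 Wald test called 11 members, all higher, where it called 1.53% of all genes, 0.950% as higher, and limma on mean CPM per cell called 3, where it called 0.160%. Over the 24 alternatives the median of the list lay between 0.64 and 0.82. Summed over the list, the day 1 cultures stood at 2401, 2526 and 2284 CPM and the day 3 cultures at 4314, 4170.2 and 4212 CPM. The day 7 cultures lay between 2793 and 4209 CPM.

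All 7 tRNA synthetase genes of the list, which load amino acids onto tRNAs, had an unadjusted p under 0.05 and no overlap between days. Over all tested genes, 5.69% were higher at that p and 9.88% were higher without overlap. These 7 genes are Cars, Gars, Nars, Aars, Wars, Mars and Sars, with log2 fold changes from 0.64 to 1.42. This grouping by role was made after the values were seen. Cars, the cysteinyl-tRNA synthetase gene, stood at 53.2, 51.0 and 56.7 CPM on day 1 and at 133, 156 and 142 CPM on day 3. The 3 day 1 cultures of Cars lay close together and well under all day 3 cultures (1.42 ± 0.23 on the log2 scale, edgeR adjusted p 0.0757). It was called in 3 of 24 alternatives. Gars, the glycyl-tRNA synthetase gene, stood at 130.2, 120.2 and 103 CPM on day 1 and at 268, 222 and 205 CPM on day 3, again without overlap.

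Of 7 genes for enzymes that make serine, glycine, proline and one-carbon units, 6 had a positive log2 fold change. The days did not overlap for 5 of these 7, all higher, against 9.88% of all genes. This group too was formed after the values were seen. Psat1, which encodes a serine synthesis enzyme, stood at 241, 230.3 and 231 CPM on day 1 and at 554, 462 and 494 CPM on day 3. Shmt2, the mitochondrial serine hydroxymethyltransferase gene, stood at 65.9, 66.0 and 76.1 CPM on day 1 and at 161, 155 and 170.2 CPM on day 3 (1.22 ± 0.20 on the log2 scale, edgeR adjusted p 0.0850). Psph, the last enzyme of serine synthesis, was a member that overlapped, at 122, 158 and 112 CPM against 80.2, 149 and 149.9 CPM. Asns stood at 100.2, 108 and 87.2 CPM on day 1 and at 218, 242 and 248 CPM on day 3 (1.26 ± 0.25 on the log2 scale, edgeR adjusted p 0.124). On day 7 Asns was at 101 ± 27.3 CPM (SD, n = 5), against 98.4 ± 10.5 CPM on day 1 (n = 3). Eif4ebp1, which encodes a repressor of cap-dependent translation, shared this order of days. It stood at 46.7, 52.8 and 52.0 CPM on day 1 and at 117, 173 and 113 CPM on day 3 (1.41 ± 0.26 on the log2 scale, edgeR adjusted p 0.10) and at 63.1 ± 16.6 CPM on day 7.

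Secreted factors of the list were low on day 1. Fgf21, a metabolic hormone gene, had no read in any of the 3 day 1 cultures and stood at 7.34, 2.31 and 2.41 CPM on day 3. Set against a floor of 3 reads over all day 1 cultures, Fgf21 stood 174-fold higher on day 3. Since reads are PCR copies, this floor is a convention and does not bound the true day 1 level. Fgf21 was not called (edgeR adjusted p 0.185), and the median of the list with Fgf21 at this value was again 0.75. Gdf15, a stress-induced cytokine gene, stood at 3.89, 0.585 and 0.833 CPM on day 1 and at 21.4, 17.8 and 12.0 CPM on day 3. Trib3, which encodes a pseudokinase that dampens ATF4 activity, stood at 8.16, 1.15 and 1.55 CPM on day 1 and at 24.6, 9.54 and 22.00 CPM on day 3. Neither Gdf15 nor Trib3 overlapped between days, and neither was called (edgeR adjusted p 0.475 and 0.452).

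The median log2 fold change was 0.23 over the 8 transcription factor genes of the list. Only Atf4 among them had no overlap between days, where 9.88% of all genes were higher without overlap. Atf4, whose activity is set mainly by translation, stood at 140.2, 205 and 137 CPM on day 1 and at 231, 230.2 and 262 CPM on day 3 (0.58 ± 0.21 on the log2 scale, edgeR adjusted p 0.413). Ddit3, which encodes the factor CHOP, stood at 9.41, 18.6 and 11.2 CPM against 10.4, 21.9 and 13.8 CPM, and Atf3 at 94.7, 93.1 and 38.5 CPM against 97.1, 75.1 and 73.3 CPM. Both overlapped. Ppp1r15a, which encodes the phosphatase subunit GADD34, overlapped at 75.4, 116 and 67.8 CPM against 64.6, 67.4 and 72.2 CPM, and so did the cystine transporter gene Slc7a11, at 7.47, 18.6 and 6.21 CPM against 4.33, 3.34 and 9.24 CPM. Nupr1 was high in a single culture, at 3.11, 2.32 and 2.08 CPM against 0.957, 0.860 and 47.0 CPM.

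The median log2 fold change was 0.17 over the chaperone list of the unfolded protein response of the endoplasmic reticulum. Of its 18 members 3 had an unadjusted p under 0.05, all higher, against 5.69% of all genes. Hspa5, which encodes the chaperone BiP, stood at 1085, 1425 and 1414 CPM on day 1 and at 2463, 2561 and 2154 CPM on day 3. The days did not overlap for Hspa5 (0.87 ± 0.18 on the log2 scale, edgeR adjusted p 0.159). Xbp1, a transcription factor gene of the same response, stood at 119, 162 and 123 CPM against 207, 214 and 180.4 CPM, also without overlap.

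**Figure D1:**
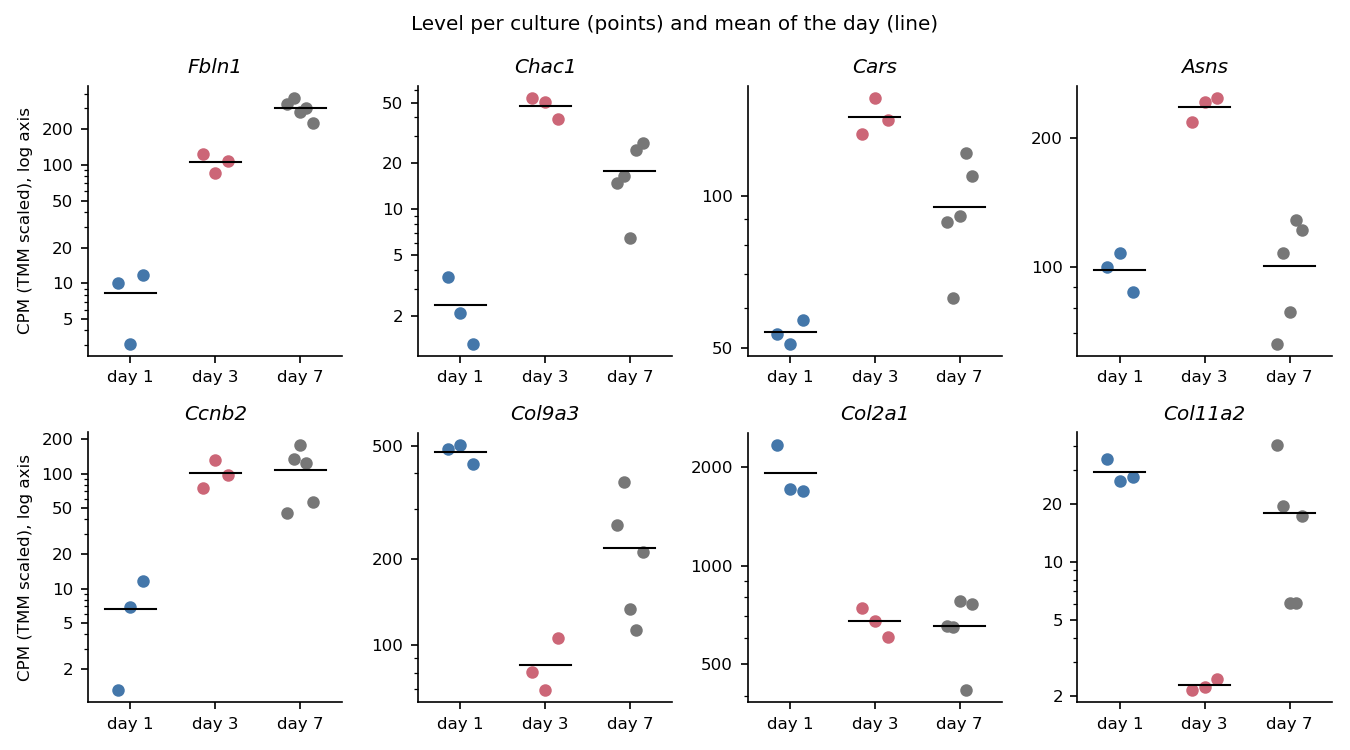
CPM of 8 genes on log axes in each culture of days 1 (n = 3), 3 (n = 3) and 7 (n = 5), with the mean of each day as a line. Chac1, Cars and Asns have their highest mean on day 3, Fbln1 has its highest on day 7, and Col9a3, Col11a2 and Chac1 have separate day 1 and day 3 points.

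Fbln1 (ENSMUSG00000006369.14, chr15:85205949-85286535 on GRCm38), which encodes fibulin 1, a secreted glycoprotein of basement membranes and elastic fibres, was the other called gene. It stood at 10.0, 3.10 and 11.8 CPM on day 1 and at 125, 86.2 and 108 CPM on day 3. No day 3 culture came near the day 1 range. Fbln1 rose by 3.69 on the log2 scale (SE 0.41, edgeR adjusted p 0.0141). On day 7 it was at 301 ± 52.6 CPM (SD, n = 5), with every day 7 culture above every day 3 culture. A Fbln1 read was found in 21.2%, 9.41% and 18.4% of the thinned day 1 cells and in 71.4%, 56.1% and 66.7% of the day 3 cells. The exact intervals did not meet, since the highest day 1 share had one from 11.1% to 34.7% and the lowest day 3 share one from 43.3% to 68.3%. Leaving out day 3 culture 1 (edgeR adjusted p 0.0579) or 3 (0.0598) ended the call. So did a fit of the 6 cultures alone (edgeR adjusted p 0.0651) and of the second file alone (0.106). Over all 24 alternatives its log2 fold change ran from 3.29 to 4.22, and 19 called it. Neither of the 2 Fbln1 promoters in RefSeq holds the C/EBP-ATF element or a CCAAT box.

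The other genes of the list of fibulins and elastic fibre components lay mostly on the opposite side. Of 19 tested members 14 had a negative log2 fold change, and 6 of them had an unadjusted p under 0.05, against 3.57% of all genes. Mfap2, a microfibril protein gene, stood at 218, 348 and 273 CPM on day 1 and at 33.3, 77.7 and 63.9 CPM on day 3 (-2.26 ± 0.58 on the log2 scale, edgeR adjusted p 0.233). Ltbp4, which encodes a TGFβ-binding protein of elastic fibres, was at 37.5, 35.6 and 38.1 CPM against 20.4, 16.8 and 18.1 CPM. Both genes had separate ranges on the days compared. Fbln2 and Fbln5, relatives of Fbln1, overlapped between days, and Fbln7 stood at 3.66, 6.59 and 5.94 CPM against 0, 0.332 and 1.69 CPM.

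Collagens II, IX and XI lay at lower levels on day 3 in all 6 of their tested chains, a group formed after the values were seen. Of the 36 tested members of the list of collagens, laminins and integrins (41 listed), 30 had a negative log2 fold change, with a median of -0.57. An unadjusted p under 0.05 was found for 9 of 36 on the lower side and none on the higher side. All tested genes had shares of 3.57% and 5.69%. In 14 of 36 every day 3 culture lay below every day 1 culture, where this holds for 8.11% of all genes. None was called by edgeR, whereas the DESeq2 Wald test called 7 members and limma 6, all lower, where these tests called 0.584% and 0.235% of all genes as lower.

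Col9a3, a chain of collagen IX, stood at 489, 504 and 433 CPM on day 1 and at 80.5, 69.6 and 106 CPM on day 3 (-2.48 ± 0.39 on the log2 scale, edgeR adjusted p 0.0757). It was called in 9 of 24 alternatives. Col9a1 stood at 642, 636 and 580.2 CPM against 154, 203 and 165 CPM, and Col9a2 at 293, 341 and 323 CPM against 144, 86.7 and 128 CPM. All 3 chains of collagen IX thus had separate ranges. Col2a1, the chain of collagen II, stood at 2348, 1722 and 1689 CPM on day 1 and at 744, 678 and 604 CPM on day 3 (-1.51 ± 0.24 on the log2 scale, edgeR adjusted p 0.0757). Col11a2, a chain of collagen XI, had the largest negative log2 fold change of the list, at 34.0, 26.2 and 27.6 CPM on day 1 and at 2.15, 2.23 and 2.45 CPM on day 3 (-3.68 ± 0.65 on the log2 scale, edgeR adjusted p 0.0850). A Col11a2 read was present in 69.2%, 69.4% and 65.8% of the thinned day 1 cells and in 9.52%, 15.2% and 15.3% of the day 3 cells. Col11a1, another chain of collagen XI, stood at 214, 180.0 and 190.4 CPM against 129, 158 and 122 CPM, with a log2 fold change of -0.51. In the second file alone, with cultures 2 and 3 of each day, edgeR called Col9a3, Col9a1, Col11a2 and Col2a1, with log2 fold changes of -2.43, -1.75, -3.54 and -1.43 in that order.

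On day 7 Col9a3, Col9a1 and Col11a2 stood above their day 3 levels in every culture. Col9a3 was at 219 ± 105 CPM on day 7 (SD, n = 5) and Col9a1 at 446 ± 184 CPM. Col11a2 ranged from 6.07 to 40.5 CPM over the day 7 cultures. Col2a1 overlapped, at 653 ± 146 CPM on day 7 and 675 ± 70.0 CPM on day 3 (n = 3).

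Collagen VI genes were also lower on day 3, and edgeR called neither in the fit of all 11 cultures. Col6a1 stood at 33.0, 15.6 and 9.28 CPM against 4.47, 0.899 and 0.816 CPM, and Col6a2 at 41.8, 30.8 and 24.2 CPM against 4.61, 6.68 and 2.58 CPM. Col6a1 was called by the DESeq2 Wald test (adjusted p 0.00454) and by limma (adjusted p 0.0443), and Col6a2 in 1 of 24 alternatives. All 12 basement membrane genes of the list (type IV collagens, laminins, nidogens and perlecan) overlapped between days, 5 with a positive and 7 with a negative log2 fold change. Of 11 integrin genes 10 had a negative log2 fold change, and Itga8 and Itga2 had separate ranges, both lower, against 8.11% of all genes. Summed mesenchyme markers, given here because mesenchymal cells make several of these collagens, ran from 913 to 1059 CPM on day 1 and from 569 to 715 CPM on day 3. The proteoglycan gene Lum made up 91.4% of that sum. Of the 12 tested mesenchyme markers 6 had a positive and 6 a negative log2 fold change. Separate ranges, which 9.88% of all genes had as higher and 8.11% as lower, were found for 4 higher and 3 lower members. Among the higher ones, Pdgfra and Prrx1 had no read on day 1 and 366 and 352 reads on day 3, with Prrx1 at 0.204, 1.68 and 4.91 CPM. The part of such cells in the collagen differences was not tested.

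**Figure D2:**
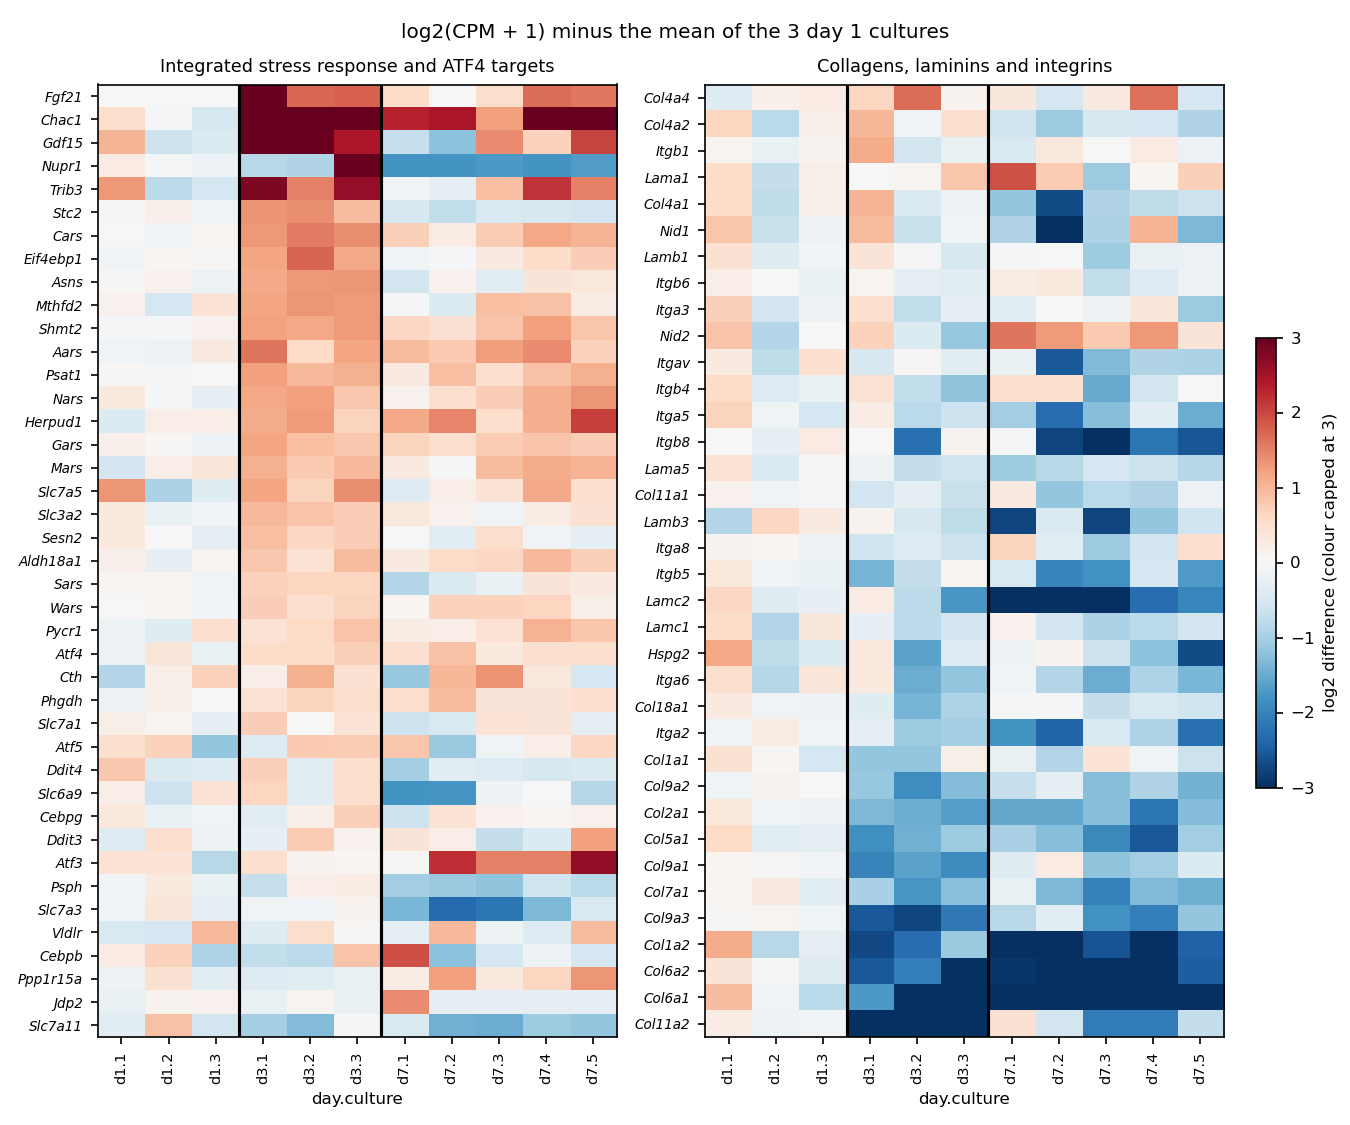
Each tested member of 2 gene lists (rows) in each culture of days 1, 3 and 7 (columns), as log2(CPM + 1) minus the mean of the 3 day 1 cultures. The stress response list has 41 genes, 34 of them with a positive log2 fold change on day 3, and the collagen list has 36, 30 of them with a negative one.

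Over the GER list of tectorial membrane and ridge genes the median log2 fold change was -0.62. Of 12 tested members 9 were lower on day 3, 4 of them with an unadjusted p under 0.05, against 3.57% of all genes. Tectb, which encodes β-tectorin, stood at 6628, 11411 and 6885 CPM on day 1 and at 1593, 5708 and 3566 CPM on day 3. Otog, which encodes otogelin, stood at 214, 128 and 169.8 CPM against 57.4, 78.1 and 100.1 CPM (-1.12 ± 0.31 on the log2 scale, edgeR adjusted p 0.260). Tecta, which encodes α-tectorin, stood at 3313, 1768 and 1898 CPM against 1746, 1322 and 1181 CPM. These 3 genes had separate ranges on the days compared. Otoa, which encodes otoancorin, lay the other way without overlap, at 49.0, 134 and 85.6 CPM against 143, 178 and 236 CPM.

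Cells with proliferation transcripts were more frequent in every day 3 culture. The class of proliferating cells comprised those in which 3 or more of the 6 genes Mki67, Top2a, Cdk1, Birc5, Ccnb2 and Tpx2 were detected after thinning to 200000 reads. This held for 10 of 52, 13 of 85 and 9 of 38 cells in day 1 cultures 1 to 3, or 19.2%, 15.3% and 23.7%. On day 3 it held for 58 of 84, 42 of 66 and 40 of 72 cells, or 69.0%, 63.6% and 55.6%. The shares did not overlap between days. The means were 19.4% ± 4.20 on day 1 and 62.7% ± 6.79 on day 3 (SD, n = 3 each), a difference of 43.3 percentage points with an exact two-sided permutation p of 0.1, the smallest that 20 assignments allow. Within the second file the difference was 40.1 percentage points.

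**Figure D3:**
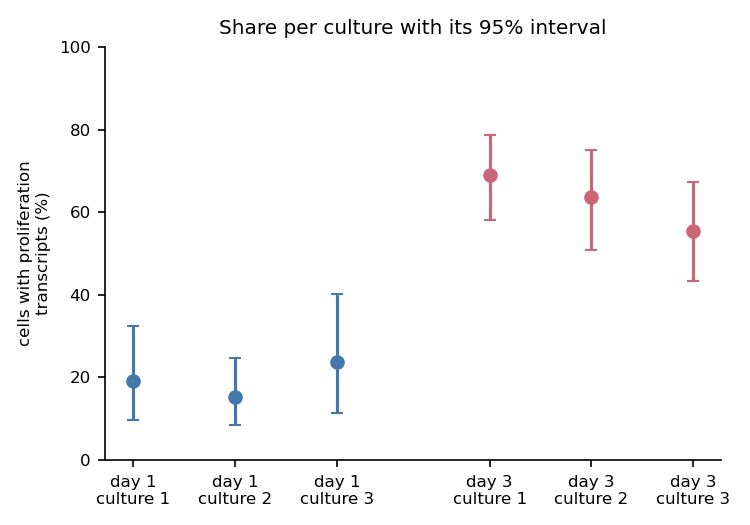
Share of cells with proliferation transcripts (percent) in each day 1 and day 3 culture, with exact 95% binomial intervals. The day 1 shares lie between 15.3% and 23.7% and the day 3 shares between 55.6% and 69.0%.

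All 45 genes of the G2 and mitosis list had a positive log2 fold change, with a median of 1.99. Of these, 44 had an unadjusted p under 0.05, against 5.69% of all genes on the higher side, and 44 had separate ranges, against 9.88%. None was called by edgeR. The DESeq2 Wald test called 31 of 45, where it called 0.950% of all genes as higher, and limma 8, where it called 0.160%. Ccnb2, which encodes cyclin B2, stood at 1.31, 6.91 and 11.6 CPM on day 1 and at 75.3, 131 and 97.6 CPM on day 3 (3.94 ± 0.70 on the log2 scale, edgeR adjusted p 0.0850). Cenpa, the centromeric histone gene, stood at 10.7, 8.09 and 19.01 CPM against 82.6, 139 and 123 CPM (3.19 ± 0.58 on the log2 scale, edgeR adjusted p 0.0850). Cdc20, which encodes an activator of the anaphase-promoting complex, stood at 6.86, 7.71 and 33.3 CPM against 131, 169.9 and 163 CPM. Among the day 1 cultures, culture 3 had the highest level of all these genes. The proliferation markers Mki67 and Top2a stood at 27.0, 18.9 and 52.6 CPM against 109, 128 and 109 CPM and at 40.4, 37.0 and 114 CPM against 182, 173 and 146 CPM.

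Of 42 S phase genes 41 had a positive log2 fold change, with a median of 0.74. An unadjusted p under 0.05 was found for 19 and separate ranges for 26, all higher, against 5.69% and 9.88% of all genes. Mcm7, which encodes a subunit of the replicative helicase, stood at 53.2, 61.3 and 82.1 CPM on day 1 and at 165, 131 and 134 CPM on day 3 (1.13 ± 0.31 on the log2 scale, edgeR adjusted p 0.247). Among 12 cyclin-dependent kinase inhibitors, D cyclins and related genes, 4 were higher and 1 lower at an unadjusted p under 0.05. Of all genes 5.69% were higher and 3.57% lower at that p. Ccnd1, the cyclin D1 gene, stood at 723, 403 and 539.7 CPM against 1071, 880.2 and 968 CPM, and Cdkn2c, which encodes the inhibitor p18, at 0.726, 1.22 and 1.02 CPM against 3.67, 9.24 and 8.80 CPM. Cdkn1c, which encodes the inhibitor p57, lay the other way, at 103, 146 and 199.6 CPM against 42.4, 85.3 and 84.4 CPM. These 3 genes had separate ranges.

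CCAAT boxes, the site of the factor NF-Y, were found in 32 of 41 promoters of the G2 and mitosis list (78.0%, from 38 of 45 genes with an entry) against 33.9% of all promoters. CCAAT boxes also occurred in 21 of 33 S phase promoters (63.6%) and in 18 of 42 stress response promoters (42.9%). The cell cycle homology region (CHR) was searched as TTTGAA or TTCGAA on both strands. It was found in 15 of the 41 G2 and mitosis promoters (36.6%) against 17.1% of all promoters. The Ccnb2 promoter (chr9:70421555-70421804 on the minus strand, RefSeq, GRCm38.p6) is shown as an example with both, in capitals.
Ccnb2: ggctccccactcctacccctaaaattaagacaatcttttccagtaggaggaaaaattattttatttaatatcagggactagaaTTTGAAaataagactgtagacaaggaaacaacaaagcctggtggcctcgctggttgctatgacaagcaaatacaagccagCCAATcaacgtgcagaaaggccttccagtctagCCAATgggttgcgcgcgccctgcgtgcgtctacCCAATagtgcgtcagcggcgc
The CHR match begins at -167 from the transcript start and the CCAAT boxes at -87, -54 and -21. Only the 250 bases before the start were searched, and here too a match describes letters and not a bound site.

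The comparison was repeated without the proliferating cells, which left 43, 73 and 33 cells in the day 1 cultures and 27, 26 and 33 cells in the day 3 cultures. With these cells edgeR called 0 of 15271 genes, and 559 (3.66%) had an unadjusted p under 0.05, 1.64% higher and 2.02% lower. The 39 genes of G2 and mitosis outside the 6 that define the class stood at a median of 1.35 on the log2 scale, against 1.99 with all cells. Of these 39, 33 had a positive and 6 a negative log2 fold change, and 3 had an unadjusted p under 0.05. Cells were left out by genes of the same list, so what remains of it depends on that choice. Some levels were low, such as Ccnb1 at 0.548, 0.676 and 0.156 CPM on day 1 and 0.835, 0.281 and 0.402 CPM on day 3. S phase had a median of 0.10 against 0.74. The stress response list had 0.68 against 0.75, with 14 genes at an unadjusted p under 0.05, all higher, and the collagen list had -0.52 against -0.57. The GER list had -0.46 against -0.62, with no gene at an unadjusted p under 0.05. Otog had a log2 fold change of -0.56 against -1.12 with all cells, and Tecta one of -0.36 against -0.72. Chac1 stood at 4.39, 2.45 and 0.676 CPM on day 1 and at 86.5, 73.6 and 49.9 CPM on day 3 in these cells (log2 fold change 4.79, edgeR adjusted p 1). Fbln1 stood at 3.87, 2.32 and 4.42 CPM on day 1 and at 69.4, 70.0 and 56.8 CPM on day 3 (log2 fold change 4.22, edgeR adjusted p 0.0583). Both genes had separate ranges in these cells, and neither passed the threshold.

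**Figure D4:**
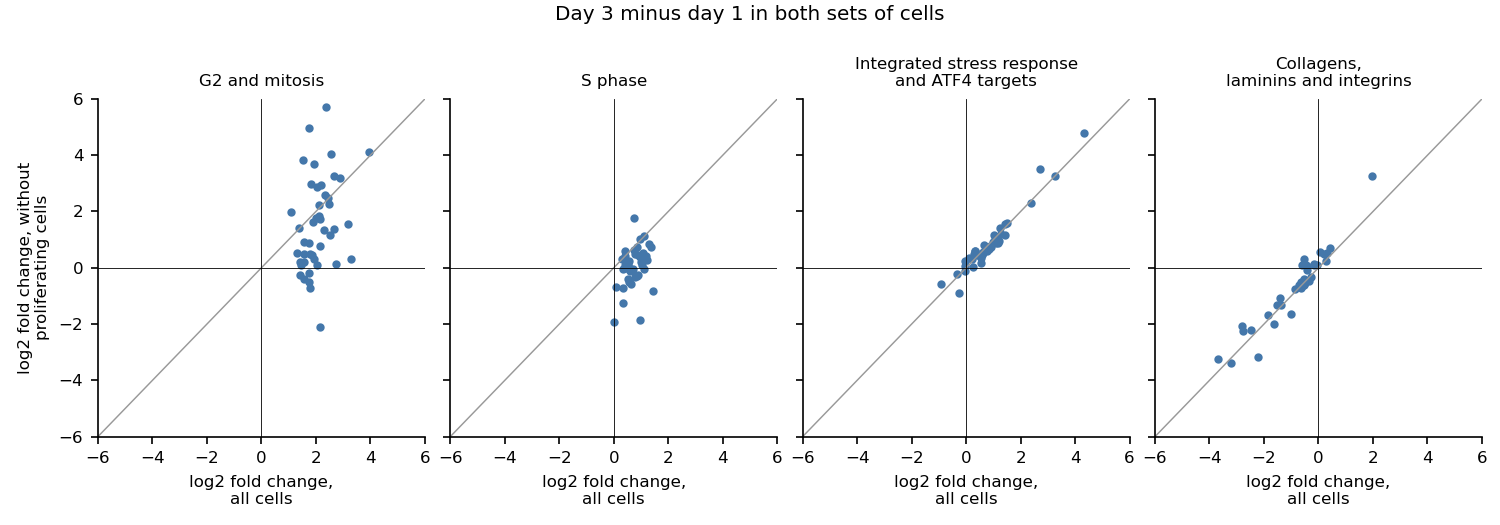
Log2 fold change of day 3 over day 1 without proliferating cells (vertical axis) against that in all cells (horizontal axis) for the members of 4 lists, with the line of equal values. The S phase median is 0.10 without proliferating cells and 0.74 with all cells, and that of the stress response list is 0.68 and 0.75. Fgf21, with no day 1 read, is left out.

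A further 10 genes in each direction were taken by log2 fold change from the uncalled genes with separate ranges, an unadjusted p under 0.05, at least 20 CPM and a read in at least 20% of cells in the higher day. On the higher side these were Ccnb2, Psrc1, Cdc20, Cenpa, Fam83d, Plk1, Iqgap3, Kifc3, Ccnb1 and Ckap2l, with edgeR log2 fold changes of 3.94 for Ccnb2 and 2.69 for Ckap2l at the ends, and Ccnb2, Cdc20, Cenpa, Plk1 and Ccnb1 are members of the G2 and mitosis list. Kifc3, a kinesin gene, stood at 10.2, 5.01 and 4.09 CPM on day 1 and at 57.8, 34.6 and 42.6 CPM on day 3 (2.81 ± 0.42 on the log2 scale, edgeR adjusted p 0.0757). Its log2 fold change without proliferating cells was 2.81, and 9 of 24 alternatives called it. On the lower side stood Prss56, Podn, Col11a2, Fst, Col6a2, Ngfr, Frzb, Slit2, Col9a3 and Gstm1. Prss56, a serine protease gene, stood at 72.8, 35.2 and 114 CPM against 0.973, 12.5 and 2.54 CPM, and Fst, which encodes the activin antagonist follistatin, at 138, 55.6 and 77.8 CPM against 14.0, 11.7 and 6.29 CPM. Frzb, a secreted Wnt antagonist gene, stood at 49.8, 57.7 and 75.0 CPM against 3.67, 14.6 and 12.7 CPM, and Ngfr, the p75 neurotrophin receptor gene, at 23.4, 13.3 and 34.1 CPM against 1.70, 2.44 and 6.97 CPM. Separate ranges were a condition of this choice.

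Among 11 tested Wnt targets and feedback genes, 7 had a positive and 4 a negative log2 fold change, with a median of 0.81. Over the 24 alternatives this median lay between 0.30 and 0.88. At an unadjusted p under 0.05, 2 were higher and 2 lower. Of all genes 5.69% were higher and 3.57% lower at that p. Wif1, a secreted Wnt antagonist gene, stood at 42.6, 23.1 and 41.7 CPM on day 1 and at 4.19, 11.4 and 8.60 CPM on day 3 (-2.15 ± 0.40 on the log2 scale, edgeR adjusted p 0.10). Lgr5, an R-spondin receptor gene of some supporting cells, stood at 119, 116 and 188 CPM against 87.0, 45.8 and 86.7 CPM, and Lef1, a transcription factor of the pathway, at 1.22, 0.205 and 0.416 CPM against 4.02, 1.90 and 6.27 CPM. Wif1, Lgr5 and Lef1 had separate ranges, while Axin2, a feedback inhibitor gene, overlapped at 15.9, 4.95 and 14.7 CPM against 6.06, 7.84 and 14.1 CPM. Of 14 ERK feedback genes 1 was higher and 1 lower at that p. Spry1, which encodes an inhibitor of receptor tyrosine kinase signalling, stood at 39.3, 39.7 and 44.1 CPM against 104, 80.0 and 108 CPM (1.25 ± 0.20 on the log2 scale, edgeR adjusted p 0.0757). Of 15 YAP and TEAD targets 2 were higher, among them F3, the tissue factor gene, at 29.5, 41.2 and 19.7 CPM against 233, 133 and 87.2 CPM (2.32 ± 0.41 on the log2 scale, edgeR adjusted p 0.0850). Neither Spry1 nor F3 overlapped between days.

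Of 20 p53 targets 18 had a positive log2 fold change, with a median of 0.60. Of the 20 genes 6 had an unadjusted p under 0.05, all higher, against 5.69% of all tested genes. The median without proliferating cells was 0.58. Aen, which encodes an apoptosis-enhancing nuclease, stood at 96.0, 48.1 and 49.2 CPM on day 1 and at 176, 122 and 138 CPM on day 3, and Btg2, an antiproliferative gene, at 91.2, 122 and 49.2 CPM against 185, 347 and 193 CPM. Both had separate ranges. Cdkn1a, which encodes the inhibitor p21, overlapped at 251, 329 and 144 CPM against 245, 361 and 284 CPM, as did Mdm2, with a log2 fold change of 0.05. Gtse1 and Sesn2 are members both of this list and of the mitosis and stress response lists, in that order.

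Of 14 tested hair cell genes 13 had a positive log2 fold change, with a median of 2.65. Yet 2 had an unadjusted p under 0.05 and 1 had separate ranges, all higher, against 5.69% and 9.88% of all genes. The median was 0.78 without proliferating cells and -0.34 without the cells that hold hair cell transcripts, a class defined by 5 genes of this list. Over the 24 alternatives it ran from -0.34 to 7.18. In the second file alone, where Pou4f3 had no day 1 read, edgeR called Ccer2, Pou4f3 and Pvalb, all higher. Pou4f3, a hair cell transcription factor gene, stood at 6.65, 0 and 0 CPM on day 1 and at 6.76, 27.3 and 37.3 CPM on day 3, and Atoh1, another, at 4.42, 0.585 and 0 CPM against 1.87, 7.02 and 13.6 CPM. Ccer2 stood at 5.05, 0.237 and 0.151 CPM against 1.70, 52.3 and 169 CPM, so that its sum rests on day 3 cultures 2 and 3. Cells in which 2 or more of the hair cell genes Pvalb, Myo7a, Gfi1, Pou4f3 and Atoh1 were detected numbered 3, 0 and 0 of 52, 85 and 38 on day 1, and 2, 3 and 4 of 84, 66 and 72 on day 3. For the cultures with 0, a floor of 3 cells allows a share of up to 3.53% and 7.89%, and the exact 95% upper limits are 4.25% and 9.25%. Of 13 supporting cell genes 6 had a positive and 7 a negative log2 fold change. At an unadjusted p under 0.05, Lgr5 and Ngfr were lower (log2 fold changes -0.95 and -2.67) and no member was higher. Over all genes, 3.57% were lower and 5.69% higher at that p. Separate ranges were found for 3 of the 13, all lower, against 8.11% of all genes. Sox2 overlapped at 18.0, 19.9 and 17.0 CPM against 7.17, 19.2 and 17.7 CPM, and Fgfr3 at 1.25, 0.126 and 2.92 CPM against 1.71, 3.65 and 0.544 CPM.

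In 9 other lists the median log2 fold change lay between -0.15 and 0.13. Of all tested genes 5.69% were higher and 3.57% lower at an unadjusted p under 0.05. The members with an unadjusted p under 0.05, higher and lower, numbered 1 and 1 of 11 otic progenitor genes, 0 and 1 of 17 Notch pathway genes, 3 and 0 of 15 immediate early genes, and 0 and 5 of 22 epithelial injury genes. They numbered 0 and 1 of 23 cell junction genes, 3 and 1 of 28 BMP, activin and TGFβ genes, 0 and 1 of 23 cholesterol synthesis genes, 2 and 2 of 25 glycolysis and hypoxia genes, and 3 and 0 of 21 interferon response genes. None of these members was called by edgeR. The DESeq2 Wald test called 1 BMP, activin and TGFβ gene and 1 interferon response gene as higher, and 1 cholesterol synthesis gene and 1 glycolysis and hypoxia gene as lower. Of all genes it called 0.950% as higher and 0.584% as lower. Hmga2, an otic progenitor gene, stood at 29.3, 14.7 and 18.9 CPM against 9.95, 11.3 and 8.19 CPM, and Fos, an immediate early gene, overlapped at 28.4, 127 and 53.9 CPM against 50.4, 94.5 and 233 CPM. S100a6, a calcium-binding protein gene of the injury list, stood at 242, 380.4 and 322 CPM against 135, 197 and 109 CPM, and Id1, a BMP target, at 5.52, 2.51 and 7.65 CPM against 21.3, 16.9 and 19.7 CPM. Hmga2, S100a6 and Id1 had separate ranges. Tm7sf2, a sterol reductase gene, stood at 76.5, 95.2 and 52.4 CPM against 22.4, 31.2 and 28.1 CPM, Slc16a3, a lactate exporter gene, at 22.9, 27.1 and 19.9 CPM against 4.35, 2.48 and 6.10 CPM, and Tap1, a peptide transporter gene of antigen presentation, at 11.8, 9.86 and 7.80 CPM against 30.7, 27.6 and 16.5 CPM. These 3 also had separate ranges, while the epithelial genes Epcam and Cdh1 overlapped, with log2 fold changes of -0.58 and -0.29.

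**Figure D5:**
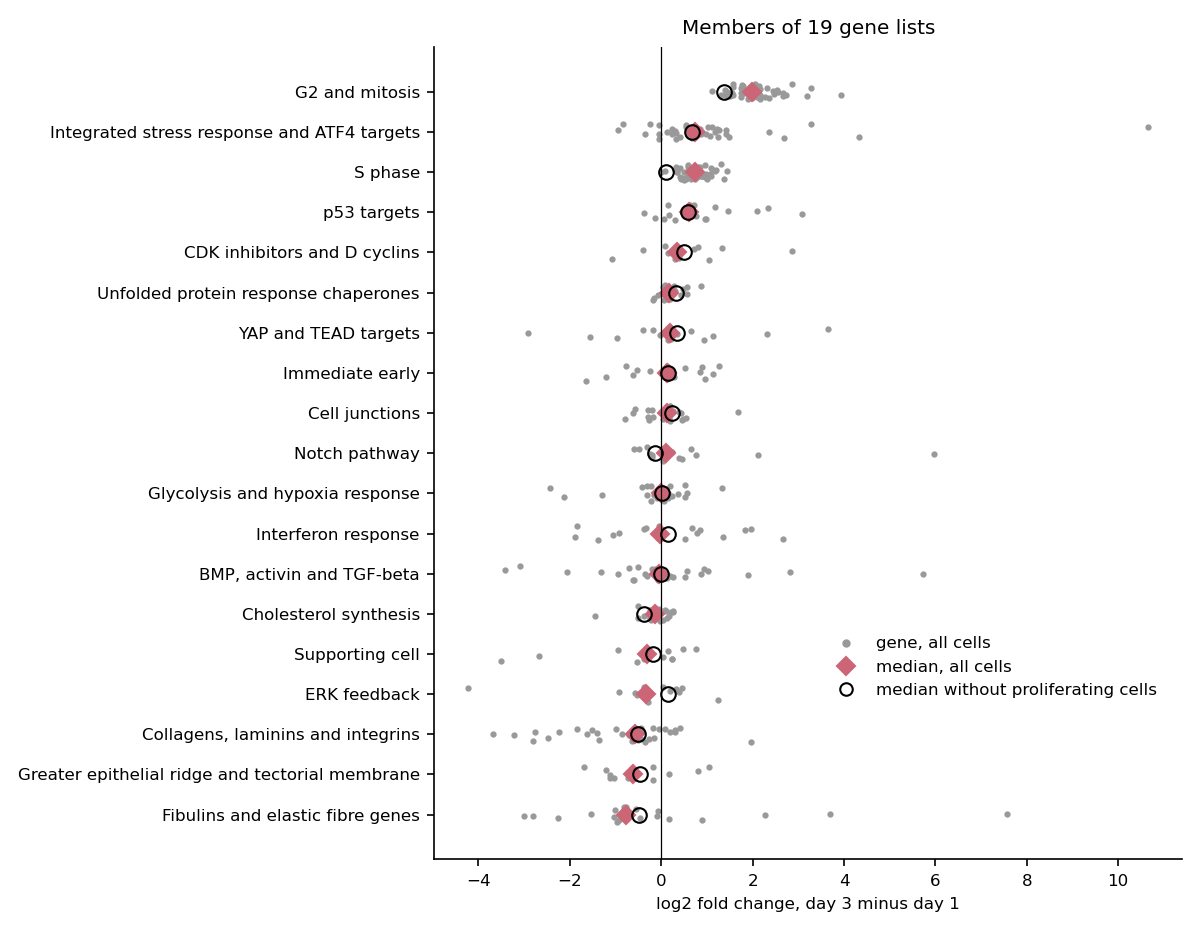
Log2 fold change of day 3 over day 1 for each tested member of 19 gene lists (points), with the median in all cells (diamonds) and without proliferating cells (open circles). The lists of hair cell, otic progenitor, Wnt and epithelial injury genes and of markers of other cell types are not drawn. Among the lists drawn, G2 and mitosis has the highest median (1.99) and the fibulin and elastic fibre list the lowest (-0.76). Fgf21 and Ltbp2, the points farthest to the right in their lists, had no read on day 1.

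Summed markers of other cell types were each led by few genes. Endothelial markers ran from 3.45 to 10.5 CPM on day 1 and from 0.625 to 31.0 CPM on day 3, with Pecam1, Kdr, Tie1 and Cldn5 at 0. Immune markers ran from 4.16 to 9.32 CPM on day 1 and from 2.40 to 3.71 CPM on day 3, and red blood cell markers from 0.0632 to 0.610 CPM on day 1 and from 0 to 0.194 CPM on day 3. Melanocyte and stria markers ran from 12.6 to 14.1 CPM on day 1 and from 10.1 to 21.5 CPM on day 3, with Tyr, Dct, Mlana, Kcne1 and Esrrb at 0. Glia and Schwann cell markers ran from 74.1 to 107 CPM on day 1 and from 76.6 to 104 CPM on day 3, with Foxd3 and Cdh19 at 0. Neuron markers ran from 368 to 586 CPM on day 1 and from 252 to 540.2 CPM on day 3, of which Isl1 made up 65.8%, with Neurog1 at 0. Pillar and Deiters cell markers ran from 1850.2 to 3031 CPM on day 1 and from 1925 to 4371 CPM on day 3, of which Cryab made up 91.8%. These sums overlapped between days except that of the immune markers.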

How the data were processed

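Cells were prepared with trypsin, picked by hand and sequenced with SmartSeq2, a full-length method without molecular identifiers, per the labels' protocols. The authors deposited RSEM expected counts per gene and cell in 2 tables of 52636 genes. The submitters' processing notes name RSEM 1.3.0, STAR 2.5.3a and the builds GRCm38 and mm10, and the annotation release is not given in the sources used here. Of the values above 0, 10.6% were not whole, so expected counts were rounded per cell. Gene positions are from GENCODE M21, which holds the same gene version for 93.2% of the genes.

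Of 447 deposited cells of both days 410 were retained, and no doublet caller was run, since cells were picked by hand. Counts were summed per culture and fitted with edgeR 4.0.16 in R 4.3.3 (quasi-likelihood test, TMM, filterByExpr by day, day as the only term, Benjamini-Hochberg adjustment). The fit held 11 cultures, so that 5 day 7 cultures add to the estimate of spread. Genes with near-identical copies share reads in expected counts. Shares of cells were tested by exact permutation with Python 3.11.15, numpy 2.4.6 and scipy 1.17.1. The scripts were tested on counts simulated from the means and spread of these data. There edgeR recovered 2 of 68 genes changed by 1 on the log2 scale, in either direction. It recovered 26 of 66 genes changed by 2 and 40 of 66 changed by 4, with 5 false calls. A gene that was not called is therefore not shown to be unchanged. Alternatives were DESeq2 1.42.0, limma 3.58.1 on log2(mean CPM + 1), other scalings, filters and sets of cells, and fits without each culture.

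Named genes were the called genes, the 10 highest and 10 lowest uncalled genes with an unadjusted p under 0.05, separate ranges, at least 20 CPM and a read in at least 20% of cells in the higher day, 2 genes a list by p, and 12 preset genes. Other list members were named, and members were grouped by role, after their values were seen. The members and the 31 lists were chosen with earlier results of these data known.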

Additional observations from a re-analysis of the deposited data

Results flagged for a closer look

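Rows for transgenes and spike-ins lie outside the gene tests and held reads. The row named egfp held 6380 reads in the day 1 cells and 7277 in the day 3 cells. As CPM of gene reads, without the TMM factor, it stood at 55.4, 54.9 and 38.1 in the day 1 cultures and at 33.9, 50.8 and 46.1 in the day 3 cultures, which overlap. The row named tdtomato held 931 and 957 reads, with a read in 24.5%, 30.2% and 23.3% of the day 1 cells and in 27.1%, 27.1% and 21.9% of the day 3 cells. The row named icretransgene held 176 and 282 reads, and the row named ert2transgene 239 and 322. Spike-in (ERCC) rows held 42 reads on day 1, all in culture 1, and 5 reads on day 3, all in culture 2.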

How the results depend on the processing

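The number of called genes depended on the fit. edgeR called 2 genes in the chosen analysis, 13 without a filter on low counts (8 higher, 5 lower), 5 in the 6 cultures alone (2 higher, 3 lower), 18 in the second file alone (11 higher, 7 lower), 5 after thinning (4 higher, 1 lower) and 0 without proliferating cells, where 559 genes had an unadjusted p under 0.05. In all cells DESeq2 called 268 (166 higher, 102 lower) and limma 69 (28 higher, 41 lower). Leaving out each culture gave 0 to 5 calls. It was 0 without day 3 culture 1 or 3, where 1420 and 1395 genes had an unadjusted p under 0.05, and 1 without day 1 culture 2 or 3, day 3 culture 2 or day 7 culture 1. The share of genes with separate ranges was 38.4% in the second file alone and 17.7% to 29.5% without each culture, since fewer cultures overlap less often. A fit with the replicate number as a block called 24 genes in the 6 cultures (8 higher, 16 lower). Same-numbered cultures of the 2 days had correlations of 0.20, 0.19 and 0.05 of their deviations, each culture correlating best with its own number, which is a hint from the data and not the design.

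The difference in genes detected per cell turned to 53.3 genes at 100000 reads, and ran from -151 to 67.4 genes without each culture. Some log2 fold changes reversed. Tek was at -0.35 with the file as a term, -1.27 in the second file, -0.73 with the replicate block, -0.30 with limma, and from -1.81 to 0.75 without each culture. Hba-a1 was at 1.28 with the file as a term and from -5.56 to 3.15 without each culture. In the second file C1qa was at 0.00, Cldn11 at -0.54 and Axin2 at 0.15. Without each culture C1qa ran from -2.23 to 4.96, Cldn11 from -0.23 to 0.97, Fgfr3 from -0.33 to 1.53 and Dll4 from -3.03 to 8.99. Mcm7 was at -0.027 without proliferating cells. Beyond the fewer cultures or cells, the cause was not tested. Exact tests on 3 against 3 cultures cannot give a p below 0.1.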
